A study of Mus musculus with 6 samples.

Results

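Interferon-stimulated genes were followed in LSK cells of wild-type and NIKaly/aly mice. They were the genes whose name on the array was 1 of 36 names of the type I and type II interferon response, a known response. The rule uses no measured value, but the members were chosen with earlier results of these data known. All 36 were on the array, with 47 of its 55681 probes and 36 of its 34821 gene names, and 35 were tested. LSK cells lack the markers of mature blood lineages and carry Sca-1 and c-Kit, and they include hematopoietic stem cells and multipotent progenitors. RNA of freshly sorted cells from each sample was hybridised to a 1-colour Agilent array, which gave 6 arrays, 3 per genotype, on 1 slide. The wild-type samples are numbered 1, 3 and 5 and the NIKaly/aly samples 2, 4 and 6. NIKaly/aly mice carry, on both alleles, the aly point mutation of Map3k14, the gene of the NF-kB inducing kinase (NIK). The mutation impairs the kinase's signalling and is carried in the germ line, so it is present around the sorted cells as well as in them. The labels name no treatment besides the sort, and strain, age and sex are not given in the sources used here. The labels do not say whether the samples came from separate animals or from pools. The p-values therefore reflect how far these samples vary among themselves, and that variation may be technical.

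Type I interferons bind the receptor pair Ifnar1 and Ifnar2, whose kinases Jak1 and Tyk2 start the signal. Stat2 and Irf9 are subunits of the complex ISGF3, which binds the interferon-stimulated response element (ISRE). Type II interferon acts on the gamma-activated site (GAS). The induced genes encode nucleic-acid sensors, antiviral enzymes, GTPases and the class I antigen processing machinery, and many are transcribed at a low tonic level without infection. In hematopoietic stem cells interferon is known to drive exit from quiescence. NIK starts the alternative NF-kB pathway, and NF-kB sites lie in the promoters of some interferon-response genes such as Irf1.

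Promoter sequence was looked at because these genes are grouped by a shared route of control. A RefSeq table of promoters (build GRCm38.p6, 250 bases before to 50 after each gene's start) held 29 of the 36 members. It had no entry for Oas2, Mx1, Mx2, Gbp6, Dhx58, Zbp1 and Usp18. The ISRE core was searched on both strands as GAAANNGAAA, where N is any base, and a stretch of repeats can give overlapping matches. It was found in 15 of the 29 members (51.7%) against 1079 of 27025 genes in the table (3.99%). The GAS core, TTCNNNGAA, was found in 8 members (27.6%) against 9.55% of all genes. The kappa-B consensus, which NF-kB dimers bind, was found in 7 members (24.1%) against 9.55%. Its match can overlap a GAS match, as in Ifit2 and Bst2. A match describes the letters and is not evidence of binding.

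The upstream windows below belong to 4 genes whose arrays separated by genotype, and they differ in the motif they hold. Capitals mark motif matches, on either strand: GAS then kappa-B in Irf1, ISRE then kappa-B in Oas3, kappa-B in Oasl1 and ISRE in Rsad2. Each reads 5′ to 3′ on the gene's strand and ends 1 base before the start.
Irf1, chr11:53769764-53770013, plus strand: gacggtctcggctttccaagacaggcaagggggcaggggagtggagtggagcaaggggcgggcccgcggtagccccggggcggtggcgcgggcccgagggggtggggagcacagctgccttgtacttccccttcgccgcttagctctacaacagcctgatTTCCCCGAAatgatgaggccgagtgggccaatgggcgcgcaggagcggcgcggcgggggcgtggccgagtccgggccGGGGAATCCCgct
Oas3, chr5:120777660-120777909, minus strand: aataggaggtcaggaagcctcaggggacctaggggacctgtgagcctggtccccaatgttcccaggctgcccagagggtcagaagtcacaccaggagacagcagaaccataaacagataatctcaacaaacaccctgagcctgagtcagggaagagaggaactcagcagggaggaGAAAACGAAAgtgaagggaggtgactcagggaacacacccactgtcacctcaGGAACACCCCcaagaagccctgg
Oasl1, chr5:114922990-114923239, plus strand: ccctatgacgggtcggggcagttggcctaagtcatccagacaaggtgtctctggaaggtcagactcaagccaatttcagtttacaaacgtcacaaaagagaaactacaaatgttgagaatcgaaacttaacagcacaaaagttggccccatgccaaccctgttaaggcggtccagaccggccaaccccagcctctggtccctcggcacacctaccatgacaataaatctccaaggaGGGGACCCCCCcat
Rsad2, chr12:26456453-26456702, minus strand: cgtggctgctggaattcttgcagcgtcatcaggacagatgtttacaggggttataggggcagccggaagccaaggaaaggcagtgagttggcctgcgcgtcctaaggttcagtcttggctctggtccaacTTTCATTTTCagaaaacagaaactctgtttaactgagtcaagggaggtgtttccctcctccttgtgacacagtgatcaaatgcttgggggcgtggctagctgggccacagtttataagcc
The Irf1 window is the first of 2 for that gene, and the second held none of these motifs. The window of Oasl2 and both windows of Irf9, whose arrays also separated by genotype, held none either.

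Shorter stretches around the ISRE core are shown for 6 members of the transcription factor, IFIT, GTPase and ISG15 system classes. The search letters fix their likeness within the core, except at the 2 free bases. Capitals mark the core, with 8 bases on each side, and positions count back from the gene's start.
Stat2, capitals at -222 to -213: caccctggTTTCAGTTTCctttccct
Ifit1, capitals at -104 to -95: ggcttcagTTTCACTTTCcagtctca
Ifit3, capitals at -122 to -113: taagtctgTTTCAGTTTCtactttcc
Igtp, capitals at -34 to -25: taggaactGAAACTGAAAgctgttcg
Gbp2, capitals at -59 to -50: tcttttagTTTCACTTTCactgtctt
Isg15, capitals at -66 to -57: aggaaaccGAAACAGAAAatagctct
In Isg15 this core overlaps another at -72 to -63, which in turn overlaps a core at -78 to -69, so the window holds a run of 3. The 14 tested members with an ISRE core had a median genotype difference of -0.16 log2 units, 10 of them lower in NIKaly/aly. The 14 without a match had a median of -0.18, with 11 lower. The presence of the core in this window thus went with no larger difference, as a description without a test.

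**Figure D1:**
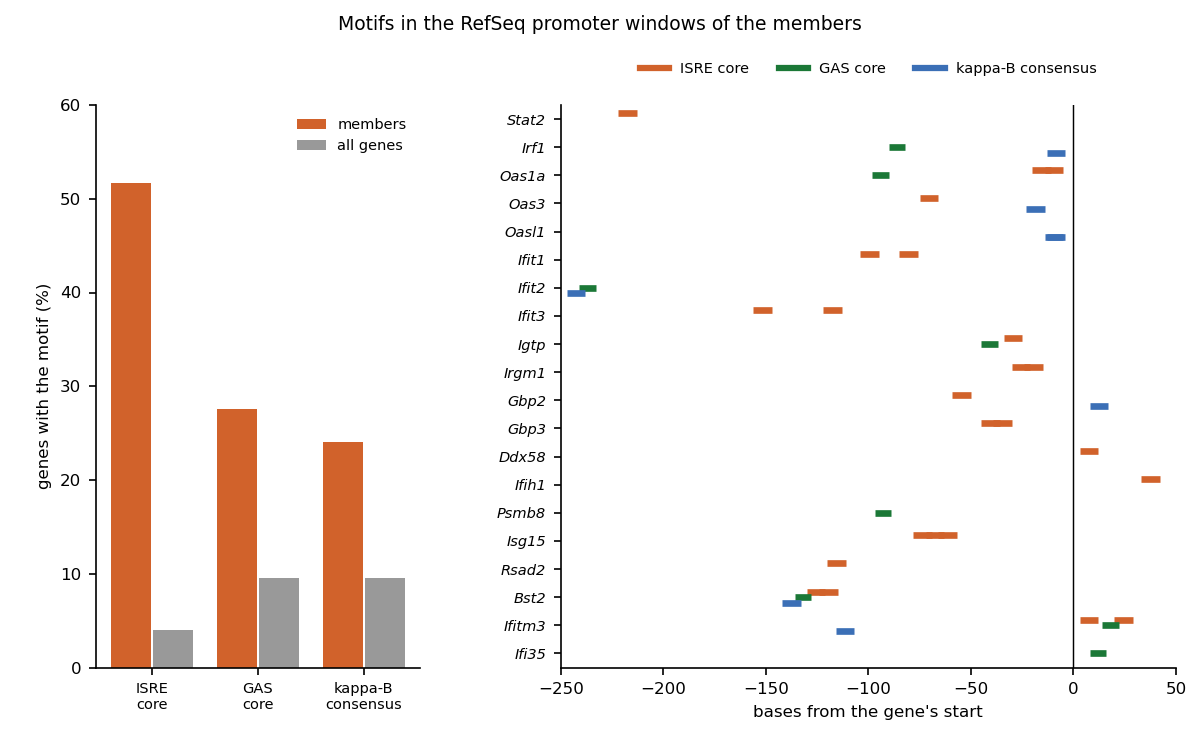
Motifs in the promoter windows of the 29 matched members. Left, percent of genes whose window holds each motif, for members and for all 27025 genes in the table; right, position of each match in bases from the gene's start (0), with 1 row per member that holds a match. The ISRE core stands in 51.7% of members and 3.99% of all genes.

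Signal is given throughout as log2 units above the 75th percentile of the same array, so a value of 0 is the 75th percentile. A level is a property of 1 probe and is not compared between genes. The share of spots well above background ran from 33.1% to 45.6% over the arrays, and the scanner's quality summary asked for evaluation of 2 of them, wild type 1 and NIKaly/aly 6. Of the members, 30 were well above background on all 6 arrays and 5 on 3 to 5 arrays. Consecutive numbers resembled each other: over 15682 tested genes Pearson's r was 0.975, 0.989 and 0.977 for samples 1 and 2, 3 and 4, and 5 and 6, against 0.929 to 0.975 for any other 2 arrays. Samples 1 and 2 stood apart from the others, with a summed erythroid marker signal of 8.59 and 7.48 against 3.18 to 4.37 elsewhere. Genes are not independent replicates, and the labels do not say that these numbers pair the samples.

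Across the 35 tested members, most read lower in NIKaly/aly, by a small amount. The members lower in NIKaly/aly numbered 27 of 35 (77.1%), against 51.4% of all 15682 genes tested, and 8 were higher. Without wild type 1 the lower members numbered 19, and without NIKaly/aly 6 they numbered 21. The median difference of all genes was then 0.099 and 0.067, in this order. With all arrays the median difference of the 35 members, NIKaly/aly minus wild type, was -0.25 log2 units, against -0.008 for all genes. The members ran from -1.06 (Usp18) to 0.60 (Ifit1). No member passed at an adjusted p of 0.05 (limma, Benjamini-Hochberg over all genes), and 0 of 15682 genes did (percent called 0). The adjusted p of each member was 0.99998. The unadjusted p fell under 0.05 for 4 members (11.4%), all lower, namely Usp18, Oas3, Oasl1 and Rsad2. The background was 1.33% of all genes in either direction and 0.708% lower. The exact permutation test of 1 gene over 3 against 3 arrays cannot give a two-sided p below 0.1.

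Groups that did not overlap, all 3 arrays of one genotype above all 3 of the other, were seen in 7 members (20%), against 4.57% of all genes. In 6 of them NIKaly/aly was lower (Irf9, Oas3, Oasl1, Oasl2, Usp18 and Rsad2), against a background of 1.89%. In 1, Irf1, it was higher, against 2.68%. The count depends on the scaling. Scaling each array to its median, which is what the authors' deposited table holds, left 1 member with non-overlapping groups, a higher one, against 1.58% of all genes, so that none of the 6 lower separations remained. It gave 0 members at an unadjusted p under 0.05, against 0.759% of all genes. The median difference was then -0.15, while that of all genes was 0.091. The count at an unadjusted p under 0.05 was 0 without wild type 3 (1.2% of all genes) and 2 without wild type 5 (1.12%). It was 1 when NIKaly/aly 4 (1.12%) or NIKaly/aly 6 (0.937%) was left out. Without samples 1 and 2 it was 10 (2.09% of all genes), with a median of -0.31, and 23 members did not overlap (25.1% of all genes, since 2 arrays per genotype separate more easily). Non-overlapping members numbered 12 without wild type 1 and 17 without NIKaly/aly 2, where 12.9% and 15.6% of all genes did not overlap.

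**Figure D2:**
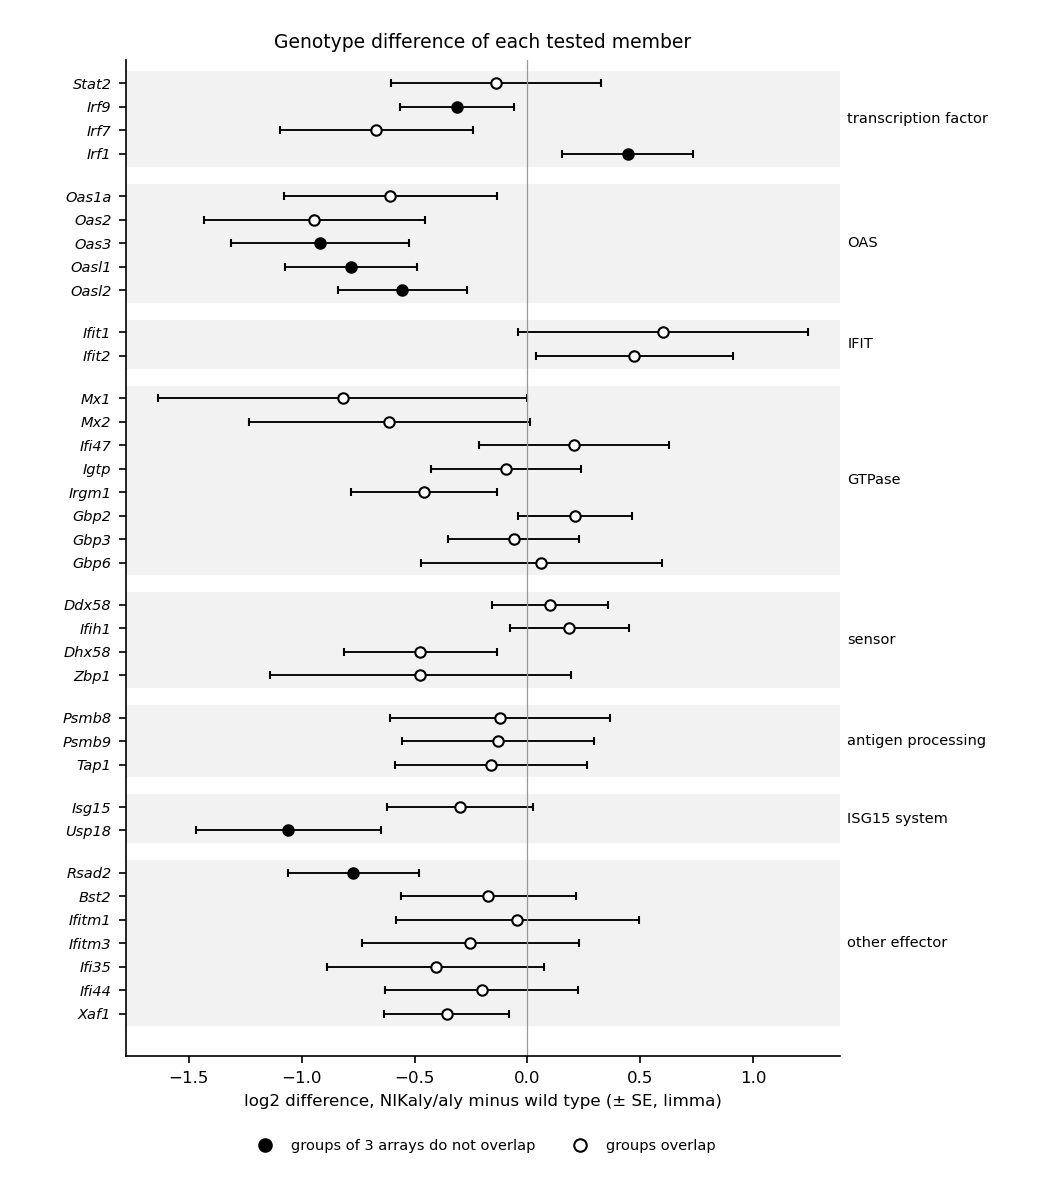
Genotype difference of each of the 35 tested members, grouped by class. The horizontal axis gives NIKaly/aly minus wild type in log2 units, points are estimates, bars are the SE from limma with 3 arrays per genotype, and filled points mark members whose groups do not overlap. Points lie left of 0 for 27 members, and all 5 OAS members lie at -0.56 or below.

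Arrays were also compared within consecutive numbers. Lower in all 3 pairs were 18 members (51.4%), against 16.2% of all genes, and higher in all 3 were 5 (14.3%), against 13.8%, which is near the background. The 5 were Irf1, Ifit1, Gbp2, Ddx58 and Ifih1. The median of the members was -0.095 for samples 1 and 2, -0.30 for 3 and 4 and -0.30 for 5 and 6, with 21, 27 and 25 of 35 lower. With the pairs as a block in limma, 13 members (37.1%) had an unadjusted p under 0.05, against 7.35% of all genes. Lower were 12 (34.3%, background 4.09%) and higher was 1, Irf1 (2.86%, near the background of 3.26%). None passed the adjusted p with the block, where 2 genes of 15682 did (0.0128%), and the smallest adjusted p of a member was 0.19, for Oasl1.

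**Figure D3:**
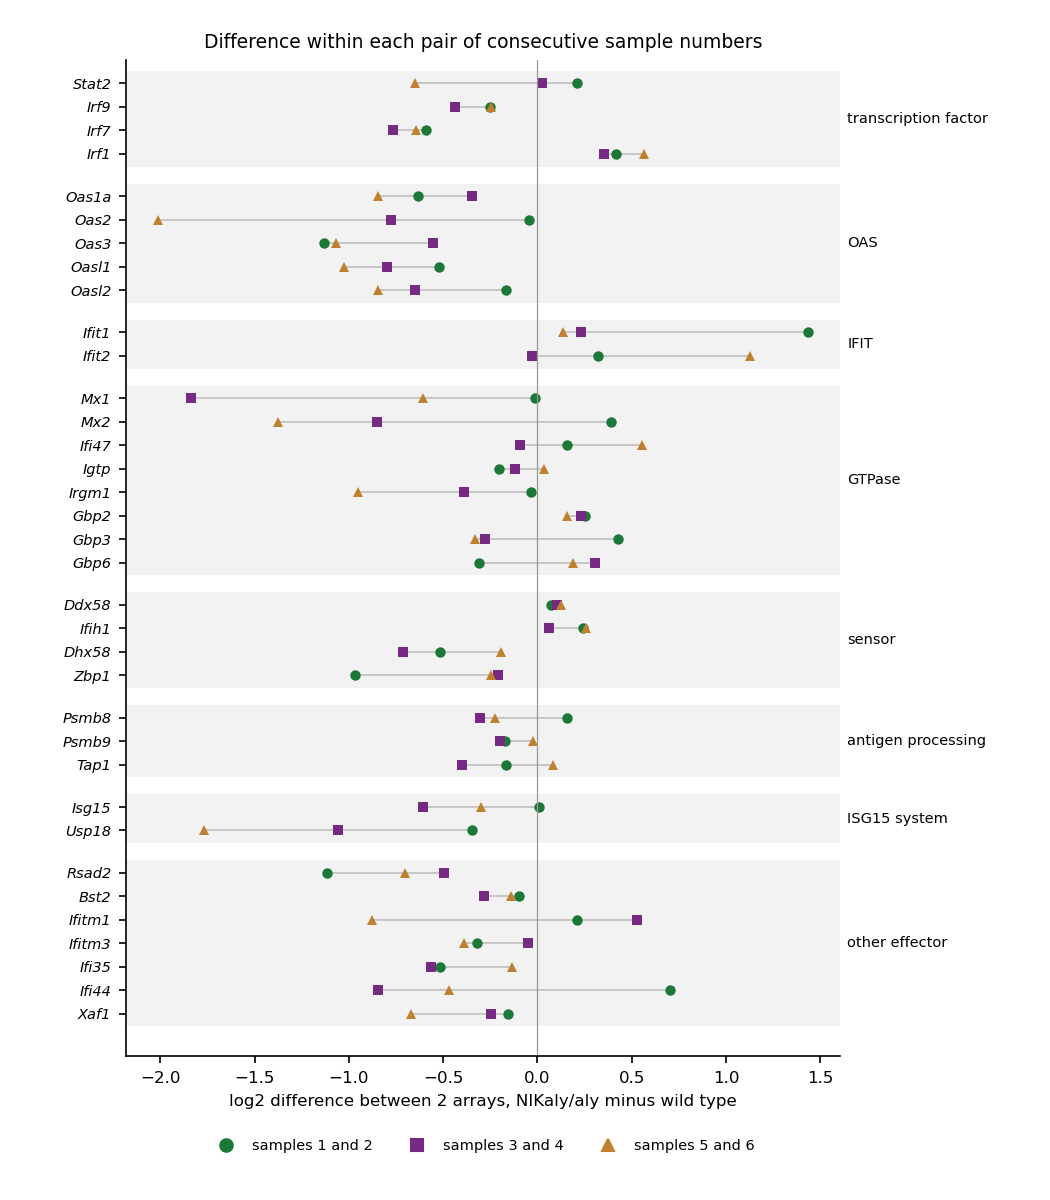
Difference of each tested member within each pair of consecutive sample numbers. The horizontal axis is the log2 difference between 2 arrays, NIKaly/aly minus wild type, each symbol is 1 pair, and the grey line joins the lowest and highest pair. For the 5 OAS members all 3 symbols lie left of 0, and for Irf1 all lie right of it.

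All OAS members read lower in NIKaly/aly. These enzymes, when bound to double-stranded RNA, make 2′-5′ linked oligoadenylates that activate the ribonuclease RNase L, while the OAS-like proteins do not all share that activity. The 5 members were lower in each of the 3 pairs, with a median of -0.78. Oas3 read 0.95, 0.11 and -0.036 in wild type (samples 1, 3 and 5, in this order throughout), against -0.18, -0.45 and -1.11 in NIKaly/aly (samples 2, 4 and 6). Every NIKaly/aly array lay below every wild-type array, at means of 0.34 ± 0.54 and -0.58 ± 0.48 (SD, n = 3 each). The difference was -0.92 ± 0.40 (SE), a ratio of 0.53 (limma, unadjusted p = 0.0485, adjusted p = 0.99998). Oasl1 read 2.23, 2.31 and 1.96 in wild type and 1.71, 1.51 and 0.94 in NIKaly/aly. Its groups did not overlap and the wild-type arrays lay close together (SD 0.18). The difference was -0.78 ± 0.29 (SE), a ratio of 0.58 (unadjusted p = 0.0279).

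Oasl2, the neighbour of Oasl1, also separated by genotype. It read 3.03, 3.19 and 2.94 in wild type and 2.87, 2.54 and 2.10 in NIKaly/aly, a difference of -0.56 ± 0.29 (SE, unadjusted p = 0.0884). NIKaly/aly 2 lay only just below the lowest wild-type array. Oas1a read 6.0, 4.88 and 4.80 in wild type and 5.37, 4.54 and 3.95 in NIKaly/aly. Its groups overlapped because samples 1 and 2 were both high, and the difference was -0.61 ± 0.47 (SE, unadjusted p = 0.235). It was -0.22 without wild type 1, -0.27 without NIKaly/aly 6 and -0.98 without NIKaly/aly 2. The second Oas1a probe differed by -0.68. Oas1a is near-identical to other Oas1 genes, so what its probes detect is uncertain. Oas2 read 1.44, 2.90 and 3.19 in wild type and 1.39, 2.13 and 1.18 in NIKaly/aly. Wild type 1 lay among the NIKaly/aly arrays, and the difference was -0.94 ± 0.49 (SE, unadjusted p = 0.0904). Leaving out wild type 1 gave -1.48, and leaving out wild type 5 gave -0.60.

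With the pair block each of the 5 had an unadjusted p under 0.05, from 0.00165 for Oasl1 to 0.0228 for Oas2. Of all genes 4.09% were lower at that threshold with the block. The probes of the 5 members lie in 2 places on chromosome 5. On mm9, per the file headers, the Oasl2 and Oasl1 probes start at 115362168 and 115387861, and the Oas2, Oas3 and Oas1a probes at 121180343, 121203598 and 121346735. The differences of the 5 members were negative at both places. Those of other OAS genes were mixed, with Oas1b (0.069) and Oas1c (0.13) positive and Oas1f (-0.50) and Oas1e (-0.085) negative. Under median scaling the 5 ranged from -0.85 (Oas2) to -0.46 (Oasl2), and with normexp background correction from -0.79 (Oas2) to -0.44 (Oasl2 and Oas3).

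**Figure D4:**
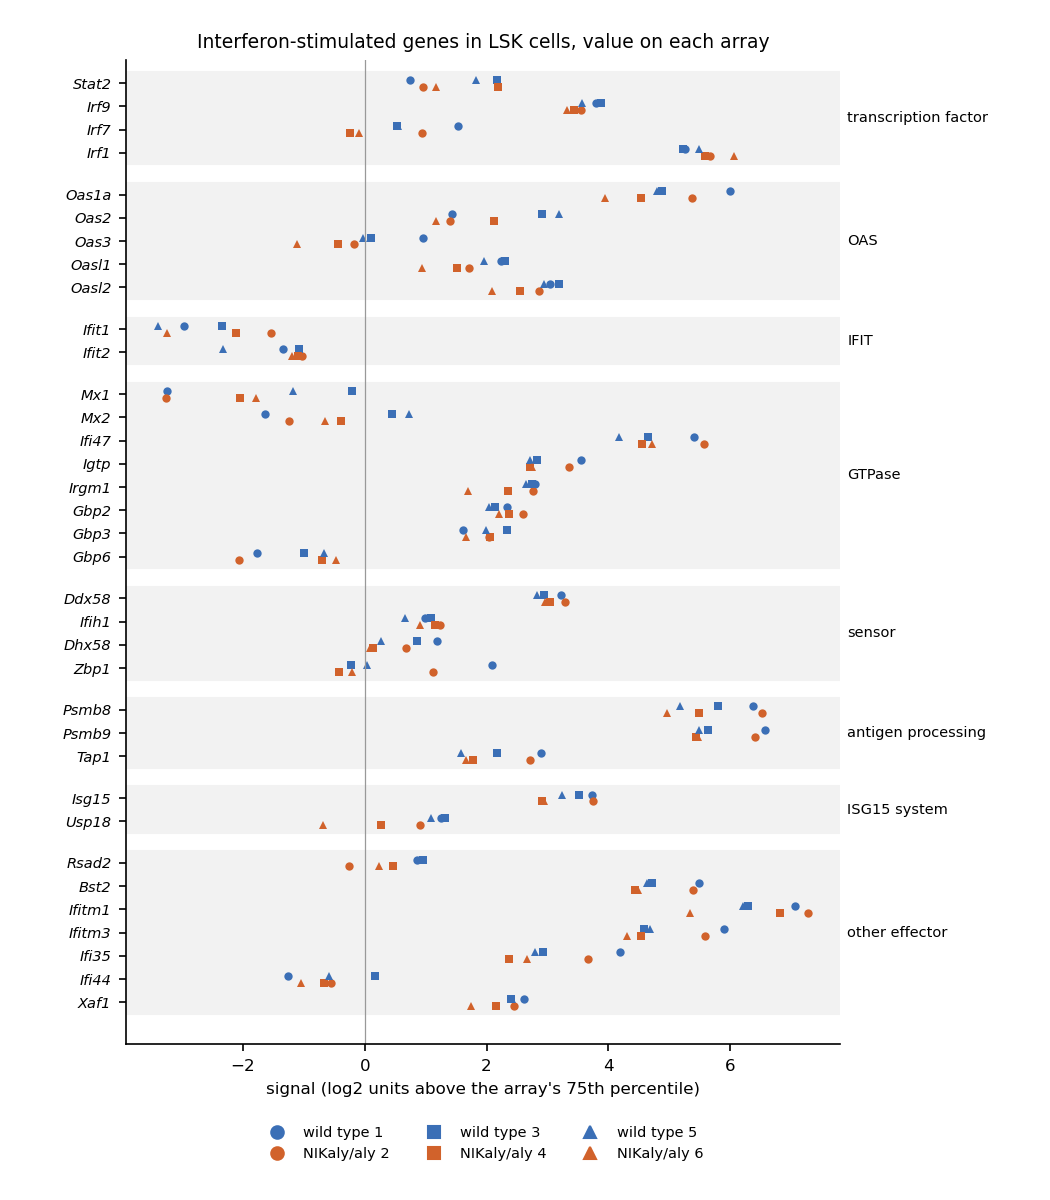
Signal of each tested member on each array, by class. The horizontal axis is the signal on a log2 scale relative to the array's 75th percentile, blue symbols are wild type, orange symbols NIKaly/aly, and the same shape marks consecutive sample numbers. Oas3, Oasl1, Oasl2, Irf9, Usp18 and Rsad2 have all orange symbols left of the blue ones, and Irf1 the reverse.

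The ISG15 system couples the ubiquitin-like protein ISG15 to other proteins and takes it off again. Usp18, the protease that removes ISG15 and also restrains the type I receptor, had groups that separated by genotype. It read 1.25, 1.32 and 1.08 in wild type, against 0.90, 0.26 and -0.69 in NIKaly/aly. The NIKaly/aly arrays were spread widely (SD 0.80, against 0.12 in wild type). The difference was -1.06 ± 0.41 (SE), a ratio of 0.48 (limma, unadjusted p = 0.0321, adjusted p = 0.99998), and it was -0.35, -1.06 and -1.77 in the 3 pairs. Without NIKaly/aly 6 it was -0.64. Isg15 itself read 3.74, 3.52 and 3.24 in wild type and 3.75, 2.91 and 2.94 in NIKaly/aly. NIKaly/aly 2 was as high as wild type 1, so the groups overlapped, and the difference was -0.30 ± 0.32 (SE). The other Isg15 probe differed by 0.003, so the 2 probes do not share a direction.

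Among the other effectors all 7 members were lower, with a median of -0.25. Rsad2 encodes viperin, an antiviral enzyme that makes a chain-terminating nucleotide. It read 0.85, 0.96 and 0.94 in wild type and -0.27, 0.46 and 0.24 in NIKaly/aly. The wild-type arrays were nearly equal (SD 0.056) and every NIKaly/aly array lay below them. The difference was -0.77 ± 0.29 (SE), a ratio of 0.59 (unadjusted p = 0.0285). Ifi35, which encodes a leucine zipper protein, read 4.19, 2.94 and 2.79 in wild type and 3.67, 2.37 and 2.66 in NIKaly/aly. It was lower in each pair while the groups overlapped, and differed by -0.41 ± 0.48 (SE). Xaf1, a pro-apoptotic gene, read 2.61, 2.40 and 2.42 against 2.45, 2.15 and 1.75, a difference of -0.36 ± 0.28 (SE).

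A second Xaf1 probe, on which the arrays lay further apart, was well above background on 2 wild-type arrays and 1 NIKaly/aly array. It read -3.66, 1.11 and 0.56 in wild type, against -3.79, -2.85 and -3.61 in NIKaly/aly. Wild type 1 thus lay with the NIKaly/aly arrays, and the probe's difference of -2.75 rests on wild type 3 and 5. The restriction factor genes Bst2 (tetherin, which holds budding virions at the cell surface) and Ifitm3 (which blocks viral fusion) differed by -0.17 and -0.25 and were lower in each pair. Ifi44 and Ifitm1 differed by -0.20 and -0.045 and changed sign between pairs. The file places the Ifitm1 probe used here on chromosome 8 and the gene's other probe, which differed by -0.002, on chromosome 7, so its target is uncertain.

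The transcription factors of the response had no common direction. Irf9, the DNA-binding subunit of ISGF3, read 3.80, 3.87 and 3.57 in wild type and 3.55, 3.44 and 3.32 in NIKaly/aly. All NIKaly/aly arrays lay below the wild-type arrays, by a small margin, and the difference was -0.31 ± 0.25 (SE, unadjusted p = 0.251, and 0.0354 with the pair block). Irf7, which amplifies type I interferon transcription, read 1.53, 0.53 and 0.55 in wild type and 0.93, -0.24 and -0.098 in NIKaly/aly. Samples 1 and 2 were high in both genotypes, so the groups overlapped. The 3 pairs differed by -0.59, -0.77 and -0.64, and the overall difference was -0.67 ± 0.43 (SE, unadjusted p = 0.156, and 0.00708 with the block). Leaving out wild type 1 gave -0.34, and leaving out NIKaly/aly 2 gave -1.04.

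Irf1, a factor that both interferon-gamma and NF-kB are known to induce, ran the other way. It read 5.26, 5.23 and 5.50 in wild type and 5.67, 5.58 and 6.06 in NIKaly/aly. Its lowest NIKaly/aly array lay above its highest wild-type array. The difference was 0.44 ± 0.29 (SE), a ratio of 1.36 (unadjusted p = 0.166, and 0.00539 with the block). On all 6 arrays its second probe failed to rise well above background. Stat2, the ISGF3 subunit that carries the activation domain, read 0.75, 2.16 and 1.82 in wild type and 0.96, 2.18 and 1.17 in NIKaly/aly. The arrays mixed, and the difference of -0.14 ± 0.46 (SE) turned positive under some settings.

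The IFIT genes encode proteins that bind foreign RNA ends, and all were dim here. Ifit1 read -2.98, -2.35 and -3.39 in wild type and -1.54, -2.12 and -3.25 in NIKaly/aly, and was well above background on 1 and 2 arrays. Ifit2 read -1.34, -1.08 and -2.33 against -1.02, -1.10 and -1.20, well above background on 2 and 3 arrays. Their differences of 0.60 ± 0.64 and 0.47 ± 0.44 (SE) lay within the spread between arrays. Ifit3 was not tested, because it was well above background on 2 wild-type arrays and no NIKaly/aly array. It read -1.83, -1.85 and -1.75 in wild type and -3.64, -3.47 and -3.89 in NIKaly/aly, with no overlap. Against the lowest signal well above background on each NIKaly/aly array, or the probe's own where higher, wild type was at least 1.62-fold higher by the means. That bound is weak, since wild type 1 was itself below the lowest such signal of its array (-1.61) and wild type 5 was below that of NIKaly/aly 6 (-1.58). The near-identical Ifit3b makes the source of this signal uncertain. The 3 genes are neighbours on chromosome 19, and their readings had no common direction.

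The interferon-inducible GTPases comprise the Mx proteins, which block viral nucleocapsids, the immunity-related GTPases (Ifi47, Igtp and Irgm1) and the guanylate-binding proteins. Of the 8 members 5 were lower and 3 higher, and the median of -0.078 was near that of all genes. Irgm1, a regulator of the other immunity-related GTPases and of autophagy, read 2.80, 2.74 and 2.65 in wild type and 2.77, 2.35 and 1.69 in NIKaly/aly. NIKaly/aly 2 overlapped with wild type, and the difference was -0.46 ± 0.32 (SE, unadjusted p = 0.192, and 0.0453 with the block). The second Irgm1 probe differed by -0.36. Mx1 read -3.25, -0.21 and -1.18 in wild type and -3.27, -2.05 and -1.78 in NIKaly/aly. Mx2 read -1.63, 0.45 and 0.73 in wild type and -1.24, -0.40 and -0.65 in NIKaly/aly.

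For both Mx genes wild type 3 and 5 were the highest arrays, and wild type 1 lay with or below the NIKaly/aly arrays. Mx1 was well above background on 2 wild-type arrays and 1 NIKaly/aly array, and Mx2 on 2 and 3. On wild type 1 both genes read below the array's lowest signal well above background (-1.61). Their differences were -0.82 ± 0.82 and -0.61 ± 0.62 (SE). Without wild type 1 they were -1.67 and -1.35. The Mx1 difference was -0.15 without wild type 3 and -0.37 without NIKaly/aly 2, and that of Mx2 was -0.17 without wild type 5. Gbp2 was higher in each pair, reading 2.34, 2.15 and 2.04 in wild type and 2.59, 2.38 and 2.20 in NIKaly/aly, a difference of 0.21 ± 0.25 (SE). Gbp3 differed by -0.061 and Gbp6, which is near-identical to Gbp10 and whose target is uncertain, by 0.062. Igtp and Ifi47 differed by -0.094 and 0.21, and each changed sign between pairs.

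The cytoplasmic sensors divided. Ddx58 (RIG-I) and Ifih1 (MDA5), which detect viral RNA and signal through Mavs, were slightly higher in each pair. Ddx58 read 3.22, 2.94 and 2.83 in wild type and 3.29, 3.04 and 2.96 in NIKaly/aly. The 3 pairs differed by 0.073, 0.10 and 0.13, which is less than the SE of the difference (0.10 ± 0.26), and the dimmer Ddx58 probe differed by -0.43. Ifih1 differed by 0.19 ± 0.26 (SE). Dhx58 (LGP2), a regulator of both, read 1.19, 0.85 and 0.27 in wild type and 0.67, 0.14 and 0.082 in NIKaly/aly, a difference of -0.47 ± 0.34 (SE, unadjusted p = 0.198, and 0.0445 with the block). Zbp1, a sensor of Z-form nucleic acid, differed by -0.47 ± 0.67 (SE), with wild type 1 at 2.10 and NIKaly/aly 2 at 1.13 above the other arrays, which lay from -0.43 to 0.043.

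Antigen processing genes differed little. Psmb8 and Psmb9 are immunoproteasome subunits and Tap1 is a subunit of the peptide transporter, and the probes of the 3 genes lie close together on chromosome 17. Their differences were -0.12, -0.13 and -0.16, each smaller than its SE (0.49, 0.43 and 0.43). All 3 were brighter on samples 1 and 2 than on the other arrays, as with Psmb8 at 6.37 and 6.53 against 4.96 to 5.80.

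The rest of the pathway was read from lists of other genes. Of 94 tested, 76 were lower and 18 higher, with a median of -0.13. The lower share of 80.9% stood beside 51.4% of all genes and 77.1% of the members. At an unadjusted p under 0.05 there was 1 (1.06%), which is not above the 1.33% of all genes. It was the chemokine gene Cxcl10, which read 0.20, 0.53 and 1.03 in wild type and 1.41, 1.06 and 1.89 in NIKaly/aly, a difference of 0.87 ± 0.34 (SE). Its groups did not overlap, though the margin between the highest wild-type and lowest NIKaly/aly array was small. The dimmer Cxcl10 probe differed by -0.052. With the pair block 10 were lower (10.6%, against 4.09% of all genes) and 1 higher (1.06%, against 3.26%) at that threshold. In all 3 pairs 35 were lower (37.2%, against 16.2%) and 6 higher (6.38%, against 13.8%).

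Of the 11 interferon ligands on the array only Ifng was tested, at -0.16 ± 0.84 (SE). The 5 receptor chains were all slightly lower, among them Il10rb (-0.38) and Ifnar2 (-0.23). Of 5 kinase and STAT genes 2 were lower, among them Tyk2 (-0.17), and 3 were higher, with a median of 0.06. Among 12 genes of interferon induction 9 were lower, including the DNA sensor gene Ifi204 (-0.47) and the endosomal RNA sensor gene Tlr7 (-0.66). Of 10 negative regulators 8 were lower, with the phosphatase gene Ptpn2 at 0.29 and Samhd1, which hydrolyses nucleotides, at -0.28.

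The other OAS and IFIT genes split 4 lower to 2 higher, with a median of -0.048. Oas1f was at -0.50 and 2010002M12Rik at -0.40, and the 2 higher, Oas1b and Oas1c, were higher in each pair. Other GTPases were lower in 6 of 7, with Iigp1 at -0.40 and Tgtp1 at -0.33. The other ISG15 genes, the ligase gene Trim25 (-0.17), the activating enzyme gene Uba7 (-0.13) and 2 more, were all lower by small amounts. Class I presentation genes were lower in 7 of 10, with the peptide transporter gene Tap2 at -0.26 and the class I transactivator gene Nlrc5 at 0.26. The remaining effectors were lower in 30 of 34, with a median of -0.15. None of the lists other than the effectors held a gene at an unadjusted p under 0.05.

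Genes of the sort and of other cells were read beside these values. Kit read 4.65 to 5.45 and Ly6a, which encodes Sca-1 and is itself interferon-inducible, 1.50 to 3.67, and both were well above background on all arrays. Ly6a read 3.67, 2.79 and 2.45 in wild type and 2.94, 2.44 and 1.50 in NIKaly/aly, a difference of -0.68 ± 0.46 (SE), lower in each pair. Since Sca-1 defined the gate, this is a description. Map3k14 differed by 0.31 ± 0.48 (SE), and a point mutation is not checked by its transcript level.

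Of the stem and progenitor markers 7 of 10 tested were higher, and their summed signal lay at 8.22 to 8.33 in wild type and 8.50 to 8.54 in NIKaly/aly, in log2 units. Markers of other cells had lower means in most cases. B-cell markers were lower in 7 of 7 (median -0.89, summed level 4.83 to 6.82 in wild type, and 3.96 to 5.79 in NIKaly/aly), and T and NK markers in 7 of 9 (6.25 to 7.91 and 6.40 to 7.64). Monocyte and macrophage markers were lower in 6 of 7 (5.53 to 6.16 and 5.34 to 5.82). Groups did not overlap for 3 of these, Csf1r (-1.17), Cx3cr1 (-1.08) and the 1 higher marker, Cd14 (2.04), against 4.57% of all genes. Nor did they overlap for the stem and progenitor marker Procr (0.78) and the T and NK marker Klrb1c (-1.17). Neutrophil markers were lower in 9 of 9 (10.05 to 12.76 and 10.20 to 11.94). Plasmacytoid dendritic cell markers were lower in 5 of 7 (7.10 to 7.73 and 6.63 to 7.55) and erythroid markers in 5 of 6 (3.30 to 8.59 and 3.18 to 7.48). Each sum adds signals on the linear scale before the log2, so its brightest genes weigh most. From wild type 3 to NIKaly/aly 4 the T and NK sum went from 6.25 to 6.40, though 7 of its 9 tested markers were lower. Within pairs the summed levels did not all run 1 way. From wild type 5 to NIKaly/aly 6 they went from 6.36 to 6.76 for T and NK markers, from 11.63 to 11.86 for neutrophil markers and from 4.07 to 4.37 for erythroid markers. In samples 1 and 2 these 3 lists were lower in NIKaly/aly. Other sums kept their direction. Those of monocyte and macrophage and of plasmacytoid dendritic cell markers were lower in NIKaly/aly in each pair. From wild type 5 to NIKaly/aly 6 they went from 6.003 to 5.819 and from 7.732 to 7.548. The stem and progenitor sum was higher in each pair. The B-cell sum was lower in NIKaly/aly 2 and 4 than in wild type 1 and 3, and almost level between samples 5 and 6. Siglech, a defining gene of plasmacytoid dendritic cells, read 5.94 to 7.50, so it was bright on every array. Among the markers that were not tested were Pax5, Ncr1, Alas2, Ly6c2, Fcgr1 and Klk1, and no marker is listed at 0. The listed neutrophil name Il8rb was not on the array, while Cxcr2 of the same list was tested, at -0.69. Fewer cells of a type and less RNA per cell cannot be told apart in these bulk samples. The part of these cell markers in the lower readings of the interferon-stimulated genes was not tested.

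Under the settings that change the signal itself, the differences of Usp18, Rsad2, Oasl1 and Irf1 kept their sign. With median scaling Usp18 was at -0.96, Rsad2 at -0.67, Oasl1 at -0.68 and Irf1 at 0.54, and with normexp correction they were at -0.61, -0.50, -0.60 and 0.50. Some members with small differences turned, Igtp, Ifitm1 and Gbp3 with median scaling and Ifitm1 and Gbp6 with normexp correction. Leaving out an array cannot turn the sign of a gene whose groups do not overlap.

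**Figure D5:**
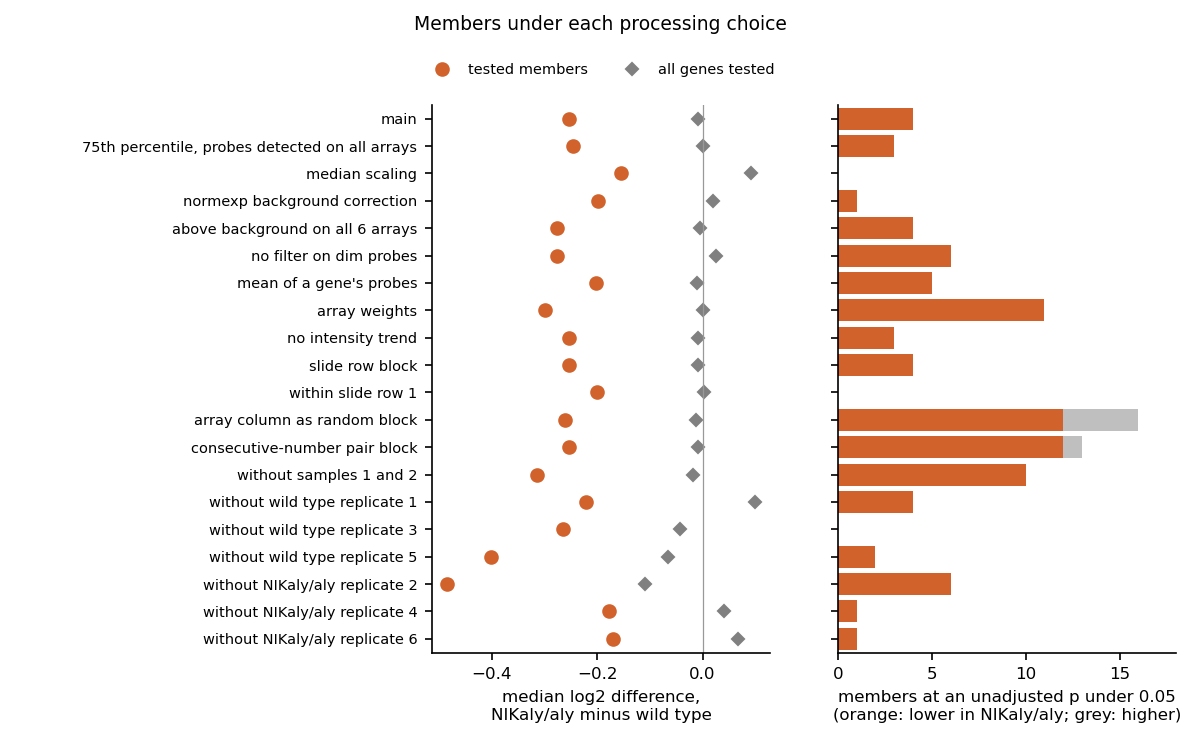
Members under the main processing and each alternative. Left, median log2 difference, NIKaly/aly minus wild type, of the tested members (circles) and of all genes tested (diamonds); right, number of members at an unadjusted p under 0.05, with lower in orange and higher in grey. The members' median lies below that of all genes under every setting, from -0.48 to -0.15, while the count runs from 0 to 16.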

How the data were processed

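RNA of LSK cells, 3 samples per genotype, was measured on 1-colour Agilent arrays. RNA was extracted with TRIzol and amplified, per the labels' protocols. The deposited scanner files hold an intensity per spot, made with Agilent Feature Extraction 10.7.3.1 (protocol GE1_107_Sep09), per the file headers, with probe positions on mm9. The processed signal is background-subtracted. The authors' deposited series table holds the same signal divided by each array's median.

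Processed signals were taken as log2 minus the array's 75th percentile over the 59305 non-control spots. Control and outlier spots were left out, and spots of 1 probe averaged. Probes well above background on at least 3 of 6 arrays were kept (21239, of which 22 lacked a value), and the brightest per gene name, leaving 15682 genes. The genotype difference was fitted in limma 3.58.1 under R 4.3.3 (lmFit, eBayes with trend, 4 residual degrees of freedom), two-sided, with Benjamini-Hochberg adjustment. A second fit had consecutive numbers as a block, which left 2 residual degrees of freedom. Values are mean ± SD or difference ± SE. A group above background on no array is given as a bound.

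The members, classes and lists were chosen with earlier results of these data known. All members are named, and of each other list the genes at an unadjusted p under 0.05, or else up to 2 with the smallest p; Siglech and the untested markers were named after their values were seen. A few list genes are not reported here. The alternatives were other scalings, normexp with an offset of 50, other filters, the mean of a gene's probes, array weights, no trend, row, column and pair blocks, and leaving out arrays. Promoters are from RefSeq (GRCm38.p6) and were set against no mm9 position.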

Additional observations from a re-analysis of the deposited data

How the results depend on the processing

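Of the 19 alternatives (18 for Ifit1, Ifit2, Mx1, Mx2 and Gbp6, which a filter on all 6 arrays removed), none turned the direction of Irf9, Irf7, Irf1, Oas1a, Oas2, Oas3, Oasl1, Oasl2, Ifit1, Ifit2, Mx1, Mx2, Irgm1, Gbp2, Ifih1, Dhx58, Isg15, Usp18, Rsad2 or Xaf1. That shows little for members whose groups do not overlap, whose sign cannot turn when an array is left out. It also shows little for the row and pair blocks and the trend setting, which left the estimates as they were. The column block did move estimates, such as Mx1 from -0.82 to -0.40 and Oas3 from -0.92 to -1.07. The class median of the ISG15 system was lower than that of the OAS genes with array weights (-0.78 and -0.63), within slide row 1 (-0.50 and -0.49), without samples 1 and 2 (-0.93 and -0.81) and without NIKaly/aly 2 (-1.0 and -0.94). Median scaling gave 10 genes past an adjusted p of 0.05, with 0 members at an unadjusted p under 0.05, 1 non-overlapping member, 0 other pathway genes at that p and a pathway median of -0.030. It reversed Igtp (0.004), Ifitm1 (0.054) and Gbp3 (0.038). Normexp correction gave 1 gene past the adjusted p, 1 member at the unadjusted p (0.778% of all genes), Ifitm1 at 0.088 and Gbp6 at -0.023. Without a filter on dim probes 2 genes passed. The mean of a gene's probes gave 0 pathway genes and Ddx58 at -0.16. Array weights gave 5 genes, 11 members at the unadjusted p (4.43% of all genes), 3 pathway genes, Ifitm1 at 0.35 and Stat2 at 0.025. Within slide row 1 there were 0 members at the unadjusted p (0.587% of all genes), 11 non-overlapping members (15.4%) and 0 pathway genes. Ifitm1 was then at 0.37, Gbp6 at -0.001, Gbp3 at 0.074 and Stat2 at 0.12. Each array column holds 1 genotype, so column and genotype cannot be told apart within it. With column as a random block (consensus correlation -0.875) 27.6% of all genes had an unadjusted p under 0.05. There 1379 genes and 11 members passed the adjusted p, and 16 members and 23 pathway genes the unadjusted one, with Gbp6 at -0.039, Gbp3 at 0.029 and Ifi44 at 0.063. The pair block gave 2 genes, 13 members and 11 pathway genes. Without samples 1 and 2 there were 10 members and 23 non-overlapping ones.

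Leaving out 1 array at a time gave 0 to 1 genes past the adjusted p and 0 to 6 members at the unadjusted p (0.937% to 1.42% of all genes). Non-overlapping members numbered 8 to 17 (8.7% to 15.6% of all genes) and members with a lower mean 19 to 28. Pathway genes numbered 0 to 1, with a pathway median of -0.24 to -0.031. Leaving out 1 array changed the direction of some members. It reversed Igtp (-0.30 to 0.17), Ifitm3 (-0.64 to 0.17), Tap1 (-0.50 to 0.17), Psmb8 (-0.56 to 0.23), Psmb9 (-0.45 to 0.21), Ifitm1 (-0.44 to 0.53), Gbp6 (-0.25 to 0.56), Gbp3 (-0.24 to 0.12), Bst2 (-0.48 to 0.098), Ifi35 (-0.79 to 0.037), Zbp1 (-0.95 to 0.25), Stat2 (-0.55 to 0.15), Ifi44 (-0.56 to 0.16) and Ifi47 (-0.10 to 0.54). The cause of these changes was not tested. Signal near background limits Ifit1, Ifit2, Ifit3, Mx1, Mx2 and Gbp6.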
